A study of Homo sapiens with 12 samples.

Results

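The translation initiation and elongation factors are the proteins that place a ribosome on an mRNA and move it along the coding sequence. They were taken from the comparison of siYTHDC1 with siSCR by gene symbol, as the genes named EIF or EEF followed by a number, without the kinases of the EIF2AK group and without pseudogenes. This gave 58 genes of the 22564 in the deposited comparison, and 36 pseudogenes with such symbols were left out. The cells were A549, an established human lung adenocarcinoma line, transfected with small interfering RNA against YTHDC1 (siYTHDC1, 6 libraries) or with a scrambled control (siSCR, 6 libraries), at 40 nM for 48 to 72 h. YTHDC1 is a nuclear protein that binds N6-methyladenosine, a methyl mark on RNA, and the comparison asks which transcripts change when it is depleted. The labels name no further treatment in either group and do not say which siRNA sequence each library received or whether the libraries came from separate cultures, so the p-values reflect only how these libraries vary among themselves. Expression was given as 1 value per gene, the mean normalized count over all 12 libraries, together with the log2 fold change (siYTHDC1 over siSCR), its standard error (SE) and an adjusted p-value from the authors' fit, and no value of a single library was at hand.

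YTHDC1 itself had a fold change of -1.82 on the log2 scale, or 71.7% lower (SE 0.11, adjusted p = 5.29e-59). The line was checked by KRT8 and KRT18, the keratins of simple epithelia, with mean normalized counts of 27600 and 14908, and by ALDH1A1, an aldehyde dehydrogenase abundant in A549, with 34836. ALDH1A1 itself was 40.4% lower in siYTHDC1, with a change of -0.75 on the log2 scale (SE 0.03, adjusted p = 1.67e-106), and so was a called gene. EPCAM, an epithelial adhesion gene, was low, at 58.4. The blood gene PTPRC and the endothelial gene PECAM1 had no row.

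Initiation begins when eIF2, bound to GTP, carries the initiator tRNA to the small ribosomal subunit, with eIF1, eIF1A, eIF3 and eIF5 at its side. The eIF4F complex, made of the cap-binding protein eIF4E, the scaffold eIF4G and the helicase eIF4A, brings the mRNA, and eIF4E-binding proteins block this step when they are not phosphorylated. The exchange factor eIF2B reloads eIF2 with GTP, and this exchange is blocked when eIF2 is phosphorylated under stress. During elongation eEF1A delivers aminoacyl-tRNA and eEF2 moves the ribosome by a codon. Many mRNAs of the translation machinery begin with a 5′ terminal oligopyrimidine (TOP) tract, a cytosine followed by a run of pyrimidines, through which mTOR signalling and LARP1 control their translation.

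The start sites of several factors are shown, most of them as examples of this tract. They are not typical of the factors, since a pyrimidine run from the annotated start itself was found in 12 of 47 (25.5%). The windows run from 10 bases before to 20 bases from the annotated start on the sense strand, and capitals mark the run, a C followed by at least 4 further C or T bases that starts within 5 bases of the annotated start. Only the sense strand was searched.
EEF1A1: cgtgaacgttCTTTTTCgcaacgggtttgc
EEF2: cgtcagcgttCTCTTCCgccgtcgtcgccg
EIF2S3: gatttccttcCTCTTTTggcaacatggcgg
EIF3D: cgcatgtttcCTCTTTTCCTggtttctcaa
EIF3F: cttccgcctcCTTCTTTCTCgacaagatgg
EIF4A2: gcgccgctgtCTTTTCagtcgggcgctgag
EIF4B: tcatccgggtCTTTTgcgttctctttccct
EIF4G3: ttttccgagcagccgtcctgccggactgct
The sequences are from RefSeq on GRCh38.p14, a later build than the one behind the expression values. They lie at chr6:73521013-73521042 (minus strand) for EEF1A1, chr19:3985444-3985473 (minus strand) for EEF2, chrX:24054946-24054975 (plus strand) for EIF2S3, chr22:36529147-36529176 (minus strand) for EIF3D, chr11:7987327-7987356 (plus strand) for EIF3F, chr3:186783567-186783596 (plus strand) for EIF4A2, chr12:53006446-53006475 (plus strand) for EIF4B and chr1:21176878-21176907 (minus strand) for EIF4G3. In the first 7 the run began at the annotated start itself. EIF4G3, which fell most after YTHDC1 depletion, had no such run in this window or in its other annotated one. A run that starts within 5 bases of the annotated start was found in 23 of 47 factors, so many others lacked it too. In some of the 23 it lay wholly before the start. EEF1A2, which also fell, had no window in the RefSeq set. Whether the run bears on the fold change was not tested.

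A gene was called when its adjusted p was under 0.001 and its log2 fold change over 0.5 in size, the limits used in the study. By this rule 0 translation factors rose and 2 fell, EIF4G3, an eIF4G scaffold, and EEF1A2, the eEF1A form known from muscle and neurons. The share of factors called was 3.45%, beside 6.76% of all genes in either direction and 3.71% of all genes for falls alone. At a mean normalized count of 100 or above (54 factors) it was 3.70%, beside 7.67% of all genes at that level.

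The median log2 fold change of the 58 factors was 0.00, with quartiles of -0.12 and 0.07, beside a median of 0.00 over all genes. There were 29 factors above 0 and 29 below. The median size of the change, regardless of sign, was 0.10 for the factors and 0.15 for all genes of that level. The 95% interval (from the SE and a normal distribution) lay wholly inside the limit of 0.5 for 51 of the 54 factors at that level (94.4%), and for 83.3% of all genes there. The median SE was 0.04 for the factors and 0.06 for those genes, so these intervals were also narrower. The other 4 factors, EIF2S3L, EIF3CL, EIF4EBP3 and EIF5AL1, had mean normalized counts of 5.08 to 32.2 and SEs of 0.21 to 0.52, and a change of the size of the limit could not be told from none in them.

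**Figure D1:**
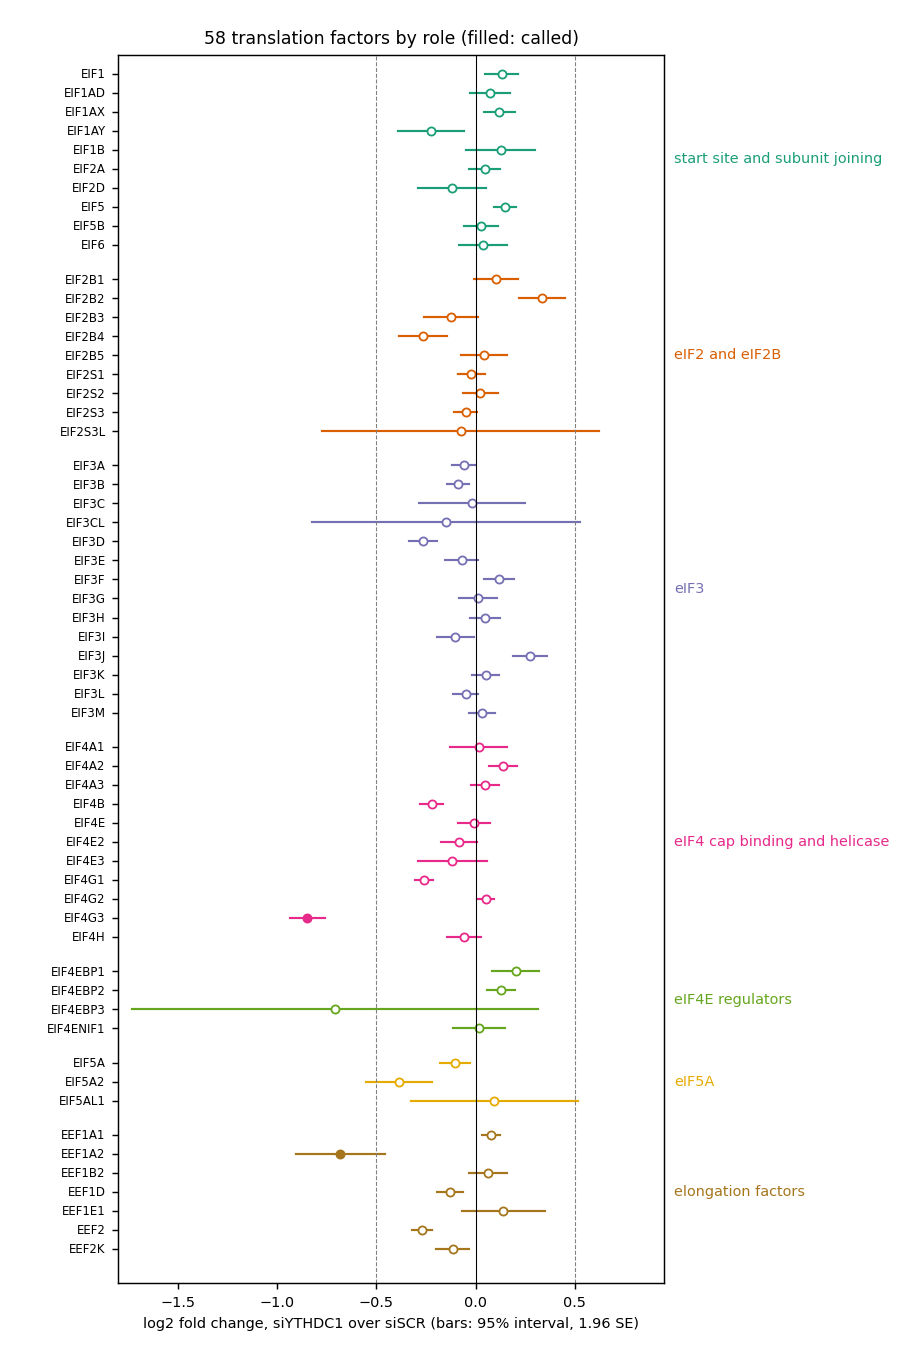
Log2 fold change, siYTHDC1 over siSCR, of the 58 factors ordered by role on the y axis, with bars for the 95% interval, dashed lines at the limit of 0.5 and filled points for called genes. The filled points are EIF4G3 and EEF1A2, both left of the lower limit, while most other points sit near 0.

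With the limit on the fold change dropped and an adjusted p under 0.05, 23 factors differed, 10 higher and 13 lower in siYTHDC1. That is 39.7% of the factors, beside 32.1% of all genes. Among factors at or above a mean count of 100 it is 42.6%, beside 51.1% of genes at that level. At the limit of 0.001 on the adjusted p, again with no fold limit, 4 were higher and 9 lower. That is 22.4% beside 18.2% of all genes, and 24.1% beside 32.3% at a mean count of 100 or above. In eIF3 and in eIF2B, the larger differences ran in opposite directions within the same complex.

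**Figure D2:**
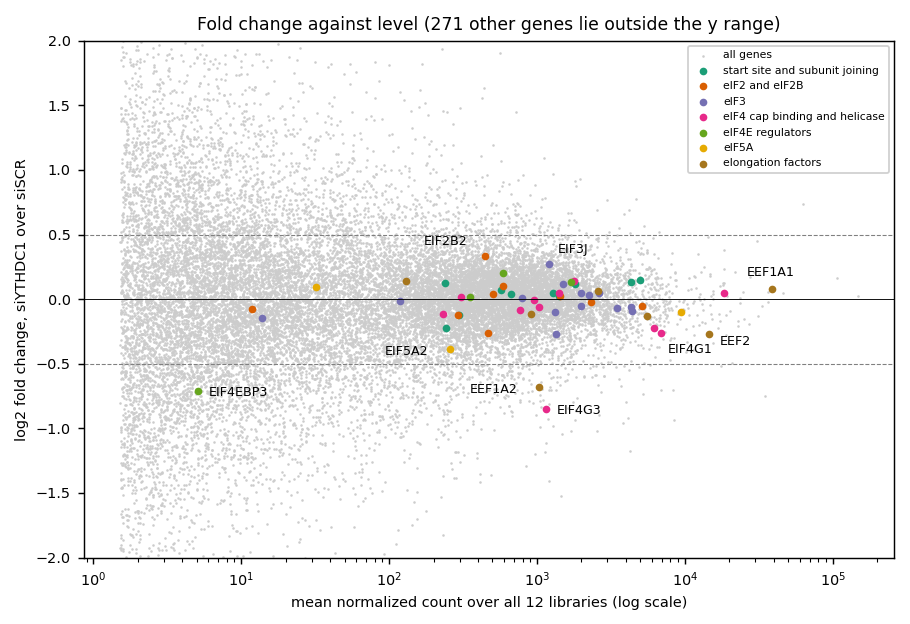
Log2 fold change on the y axis against the level, the mean normalized count of the 12 libraries, on the x axis (log scale), with all genes in grey and the factors coloured by role. The factors lie mostly among the well-expressed genes and close to 0, with EIF4G3 and EEF1A2 below the dashed line at -0.5. The point of EIF4EBP3 is below that line too, at a mean normalized count of 5.08, and was not called.

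Within the eIF4 group of 11 genes, the scaffolds EIF4G3 and EIF4G1 had the widest differences. EIF4G3 (ENSG00000075151.15, GRCh37 chromosome 1, 21132785 to 21503778, minus strand) had a mean normalized count of 1153. With groups of equal size, the fold change puts it at about 1483 in siSCR and 823 in siYTHDC1. This is a fall of 0.85 on the log2 scale (SE 0.05, 95% interval -0.94 to -0.76, adjusted p = 1.09e-75), or 44.5% lower, and in bulk RNA fewer cells that express a gene and less RNA per cell cannot be told apart. Among the 10410 genes at or above a mean count of 100, it was the 125th lowest fold change. EIF4G3 had the longest span of the 58 genes, 371.0 kb, and up to 37 exons in a transcript.

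EIF4G1, the main eIF4G scaffold, had a fold change of -0.26 (SE 0.02, adjusted p = 1.17e-28), at about 7483 in siSCR and 6243 in siYTHDC1. EIF4G2, a relative that lacks the eIF4E-binding part and serves cap-independent initiation, was at 0.05 (SE 0.02, adjusted p = 0.0615). The 3 scaffolds thus spread from -0.85 to 0.05. EIF4B, which stimulates the helicase, was at -0.22 (SE 0.03, adjusted p = 2.43e-12), and EIF4A2, a helicase form, at 0.14 (SE 0.04, adjusted p = 0.000559). EIF4A1, the main helicase, was at 0.01 (SE 0.07), with a low mean normalized count of 308. Of its 5199 exonic bases, 2466 are shared on the same strand with another gene, so reads there could be lost to it. EIF4E, the cap-binding protein, was at -0.01 (SE 0.04, adjusted p = 0.902), with an interval from -0.09 to 0.07. Its relatives EIF4E2, a cap-binding repressor, and EIF4E3 were at -0.08 and -0.12, with adjusted p of 0.164 and 0.347.

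Of the eIF4E regulators, EIF4EBP1 and EIF4EBP2, the proteins that mTOR phosphorylates to release eIF4E, were both higher. EIF4EBP1 was at 0.20 (SE 0.06, adjusted p = 0.00446) and EIF4EBP2 at 0.13 (SE 0.04, adjusted p = 0.00161), each below the fold limit. EIF4EBP3 had 5.08 normalized counts on average and a fold change of -0.71 (SE 0.52, adjusted p = 0.334), and 73.2% of its exonic bases overlap another gene, the readthrough with its neighbour ANKHD1. EIF4ENIF1, which carries eIF4E into the nucleus, was at 0.02 (SE 0.07).

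For the elongation factors, EEF1A2 (ENSG00000101210.6, GRCh37 chromosome 20, 62119366 to 62130592, minus strand) had a mean normalized count of 1028, or about 1266 in siSCR and 790 in siYTHDC1. It was 37.7% lower, with a change of -0.68 on the log2 scale (SE 0.11, 95% interval -0.90 to -0.46, adjusted p = 2.78e-08). The upper end of that interval lies inside the limit of 0.5. Its SE was larger than that of 99.1% of 4251 genes of similar level (median 0.05), so the libraries differed more in EEF1A2 than is usual at this level. In the test of a change larger than 0.5, which asks more than that the change is not 0, EIF4G3 was called and EEF1A2 was not.

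EEF1A1, the form found in nearly all cells, had the highest level of all factors, 3868 normalized counts per kb of exon, 18.2 times that of EEF1A2. Its fold change was 0.08 (SE 0.02, adjusted p = 0.00329), from about 37854 to 39984 normalized counts. EEF2, the translocase, came next in level, with 3636 per kb, and had a fold change of -0.27 (SE 0.03, adjusted p = 1.58e-24), from about 15980 to 13263. EEF2K, the kinase that inhibits eEF2, was at -0.12 (SE 0.04, adjusted p = 0.0243). Among the exchange-factor subunits that recharge eEF1A, EEF1B2 was at 0.06 (SE 0.05, adjusted p = 0.376) and EEF1D at -0.13 (SE 0.03, adjusted p = 0.000765). EEF1G, a further subunit, had no row and was not analysed here, and 2632 of its 2639 exonic bases are shared with another gene on the same strand. EEF1D shares 34.0% of its exonic bases with genes on the opposite strand, and stranded counting was not stated. EEF1E1, which is a partner of the multi-synthetase complex, was at 0.14 (SE 0.11).

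The eIF5A genes make the factor that helps ribosomes through difficult stretches such as runs of proline. EIF5A, the common form, was at -0.10 (SE 0.04, adjusted p = 0.0266) and EIF5A2, at 74.8 times lower level per kb, at -0.39 (SE 0.08, adjusted p = 3.16e-05). At a mean count of 100 or above, EIF5A2 had the next largest difference after the called genes, at about 293 normalized counts in siSCR and 224 in siYTHDC1. EIF5AL1, a copy close to EIF5A, had 32.2 normalized counts and a fold change of 0.09 (SE 0.21).

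The 14 genes of eIF3, the scaffold that holds initiation factors on the small subunit, had a median of -0.03. EIF3D, the subunit that can itself bind the cap of some mRNAs, was at -0.27 (SE 0.04, adjusted p = 7.86e-12), from about 1470 to 1222 normalized counts. EIF3J, the loosely attached subunit, was at 0.27 (SE 0.04, adjusted p = 2.52e-09), from about 1096 to 1324. EIF3F was at 0.12 (adjusted p = 0.00915) and EIF3B at -0.09 (adjusted p = 0.00707). The 9 others at or above a mean count of 100 lay between -0.10 and 0.05, with adjusted p over 0.05. EIF3C and EIF3CL are near-identical copies, so their counts of 118 and 13.7 are uncertain. Of the 4296 exonic bases of EIF3L, 1767 overlap another gene on the same strand and 460 on the opposite one.

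For eIF2, none of the subunit genes had an adjusted p under 0.05. EIF2S1, the subunit that stress kinases phosphorylate, was at -0.02 (SE 0.03), EIF2S2 at 0.02 (SE 0.04) and EIF2S3 at -0.05 (SE 0.03). The genes of its exchange factor eIF2B were less even. EIF2B2, in the regulatory part, was at 0.33 (SE 0.06, adjusted p = 2.22e-07), the highest fold change of all factors, from about 397 to 500 normalized counts. EIF2B4, also in the regulatory part, was at -0.27 (SE 0.06, adjusted p = 8.84e-05), from about 506 to 421. EIF2B1, EIF2B3 and EIF2B5 lay between -0.12 and 0.10, with adjusted p over 0.05. Of the exonic bases of EIF2B2, 23.6% overlap genes on the opposite strand.

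The 10 genes grouped here under start site selection and subunit joining had a median of 0.06, and 8 were above 0. Whether each of them acts in these steps was not examined. Of all genes at a mean count of 100 or above, 5419 of 10410 were above 0. At an adjusted p under 0.05, 3 of the 10 were higher and 1 lower, or 40%, beside 51.1% of genes at that level. EIF5, which triggers GTP hydrolysis by eIF2 at the start codon, was at 0.15 (SE 0.03, adjusted p = 1.95e-06), from about 4736 to 5249 normalized counts. EIF1, which keeps the scanning ribosome open, was at 0.13 (SE 0.04, adjusted p = 0.00837). EIF1AX, which works beside it, was at 0.12 (SE 0.04, adjusted p = 0.00974), and its copy on chromosome Y, EIF1AY, at -0.23 (SE 0.08, adjusted p = 0.0260). The other 6 (EIF1AD, EIF1B, EIF2A, EIF2D, EIF5B and EIF6) lay between -0.12 and 0.13.

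Pairs of related genes were set side by side, with the SE of the difference taken as if the estimates were independent, as a description without a test. EIF4G3 lay 0.59 below EIF4G1 (difference -0.59, SE 0.05) and EIF4G2 lay 0.31 above it (SE 0.03). EEF1A2 differed from EEF1A1 by -0.76 (SE 0.12), EIF1AY from EIF1AX by -0.35 (SE 0.09) and EIF5A2 from EIF5A by -0.28 (SE 0.09). In each of these 5 pairs the gene of lower level per kb had the lower fold change, and both eIF4G pairs hold EIF4G1. The order was the same in the pairs that follow, and in EIF3CL less EIF3C (difference -0.13, SE 0.37), where the intervals include 0. As said above, reads of EIF4A1 could be lost to another gene, and the counts of EIF3C and EIF3CL are uncertain. The order of the levels is thus uncertain in the pairs that hold these genes. EIF1B and EIF1 had almost the same fold change (difference 0.00, SE 0.10), although EIF1 had 9.57 times the level per kb. For EIF4A2 less EIF4A1 the difference was 0.12 (SE 0.08), for EIF4E2 and EIF4E3 less EIF4E it was -0.07 (SE 0.06) and -0.11 (SE 0.10), and for EIF4EBP2 less EIF4EBP1 it was -0.07 (SE 0.07), with intervals that include 0.

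**Figure D3:**
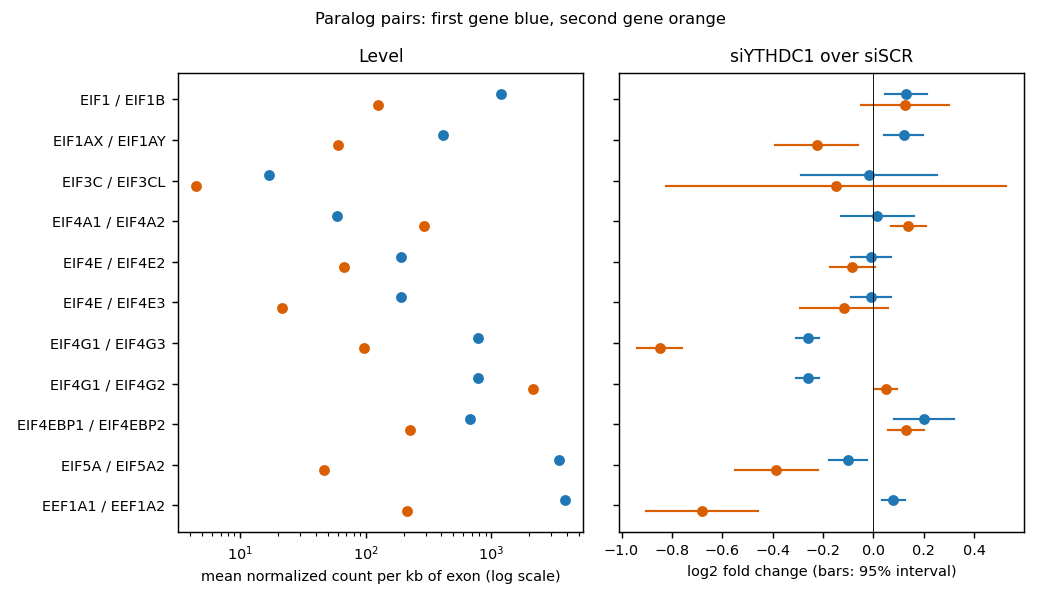
Pairs of related genes, with the level on the left (mean normalized count per kb of exon, log scale) and the log2 fold change, siYTHDC1 over siSCR, with its 95% interval on the right. The first gene of a pair is blue and the second orange. EIF4G3, EEF1A2, EIF5A2 and EIF1AY are lower in both panels than their partners.

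Levels between genes were compared per kb of exon, with lengths from a later annotation than the one used for counting. EEF1A1, EEF2, EIF5A (3489 per kb) and EIF4G2 (2161 per kb) led, and the highest of each further role was EIF2S3 (1266), EIF1 (1203), EIF3K (946) and EIF4EBP1 (673). Across the 54 factors at or above a mean count of 100, the fold change had a Spearman correlation of -0.24 with gene span, -0.25 with exon length and 0.16 with the level per kb. Over 10274 genes of that level the correlation with span was 0.06. All these points share the same 12 libraries, and the longest gene is EIF4G3, so the values are a description.

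A pyrimidine run near the annotated start was found in 23 of 47 factors in the RefSeq table (48.9%), against 25.2% of 27305 genes and 30.1% of the 7790 genes at or above a mean count of 100. A run that begins at the start itself, a narrower rule added after the values were seen, was found in 12 of 47 factors (25.5%), against 5.14% and 7.64% of those genes. Factors with that narrower run had a median level of 649 normalized counts per kb, and a median fold change of 0.04 (7 above 0, 5 below). The 33 factors without it had a lower median level, 164 normalized counts per kb, and a median fold change of 0.01. All these medians are over factors at a mean count of 100 or above. EEF1A1, EIF3F and EIF4A2 (fold changes of 0.08, 0.12 and 0.14) and EEF2, EIF3D and EIF4B (-0.27, -0.27 and -0.22) all have the run shown above, so genes with the run lay on both sides of 0. The absence of a run says only that these letters are not in the window. The wider rule also took in runs that end before the annotated start and so lie outside the annotated transcript. In EEF2K, EIF1, EIF1AY, EIF3C, EIF5 and EIF5A2 the run found was of this kind, and so not a terminal tract. How many of all genes had only such runs was not counted.

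**Figure D4:**
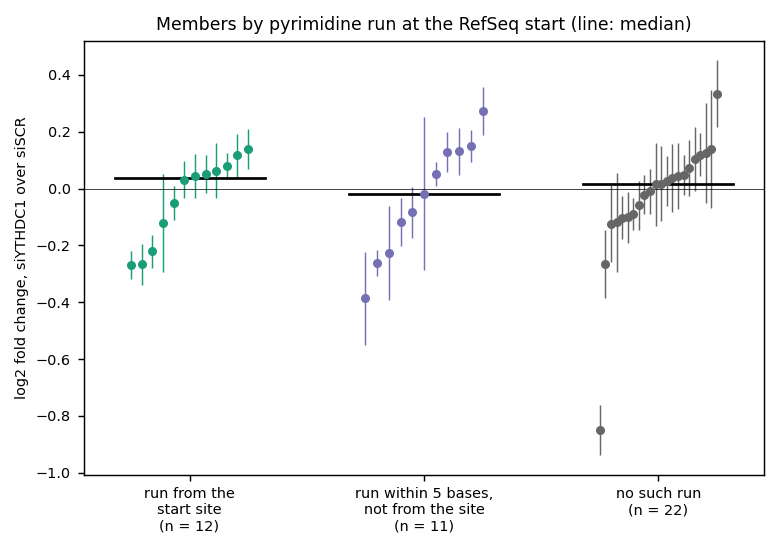
Log2 fold change, siYTHDC1 over siSCR, with its 95% interval (y axis) for the factors at or above a mean count of 100, split by a pyrimidine run at the RefSeq start (x axis). Black lines are medians of 0.04 (n = 12), -0.02 (n = 11) and 0.02 (n = 22). The group with n = 11 includes runs that end before the annotated start. Each group spans 0, and EIF4G3 is the low point of the group without a run.

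Other genes of translation were listed apart from the factors, and 61 of 62 had a row. Of these 0 rose and 1 fell by the call rule, which is 1.64% beside 6.76% of all genes. This was MKNK2, a kinase that phosphorylates eIF4E while bound to eIF4G, with a change of -0.72 on the log2 scale (SE 0.06, adjusted p = 1.89e-28) and a mean normalized count of 875. Its relative MKNK1 was at 0.11 (SE 0.07, adjusted p = 0.226). At an adjusted p under 0.05 with no fold limit, 10 of the 61 were higher and 13 lower, together 37.7% beside 32.1% of all genes. At a mean count of 100 or above the share was 36.7%, beside 51.1% of all genes there.

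Of the 8 genes that control eIF2 phosphorylation, 2 were higher and 3 lower at an adjusted p under 0.05. That is 62.5%, beside 51.1% of all genes at a mean count of 100 or above, where all 8 lie. PPP1R15A, the stress-induced subunit of the eIF2 phosphatase, was at 0.40 (SE 0.07, adjusted p = 2.93e-07), and PPP1R15B, the constant one, at -0.31 (SE 0.04, adjusted p = 1.44e-16). The kinase EIF2AK2 was at -0.26 (adjusted p = 1.33e-07) and EIF2AK1 at -0.17 (adjusted p = 0.000515), while EIF2AK3 was at 0.17 (adjusted p = 0.0271) and EIF2AK4 at -0.04 (adjusted p = 0.674). DHPS, the first enzyme of the hypusine modification that eIF5A needs, was at -0.45 (SE 0.08, adjusted p = 8.49e-07), and DOHH, the enzyme that completes it, at 0.08 (SE 0.10, adjusted p = 0.644). Of the 12 genes of mTOR and MNK signalling, MKNK2 among them, 2 were higher and 4 lower at that adjusted p. That is 50%, close to the 51.1% of all genes at a mean count of 100 or above, where all 12 lie. LARP1, which binds TOP mRNAs, was at 0.14 (adjusted p = 6.36e-07), RHEB, the activator of mTOR, at 0.23 (adjusted p = 1.26e-06) and MTOR at -0.16 (adjusted p = 5.68e-05). Apart from MKNK2, none of the genes named here passed the fold limit.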

How the data were processed

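Total RNA was measured with stranded libraries after removal of ribosomal RNA. Per the labels and the study's methods, the authors aligned reads to hg19 with STAR, counted them per gene with HTSeq and tested siYTHDC1 against siSCR in DESeq2, where sequencing batch entered as a term. Whether counting used the strand was not given in the sources used here. The deposited table has 1 row per gene: a signal (the authors' mean normalized count of all libraries), the authors' log2 fold change with its SE, a Wald score, and p-values, all deposited by the authors. All fold changes and p-values reported are thus the authors' own comparison. The score equalled fold change over SE within 9.14e-05. The table holds no counts, so no library could be examined or left out, and depth per library is unknown.

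Computed here were calls, 95% intervals, group levels implied by mean and fold change for equal groups (approximate, given the batch term), medians, differences of related genes, levels per kb and start windows. Exon lengths, overlaps and coordinates came from GENCODE mapped to GRCh37, matched by gene ID for 58 of 58 factors. Named were called genes, up to 10 factors in each direction with adjusted p under 0.05 and the largest change at a mean count of 100 or above, the highest level per role and pairs of related genes. Other genes were named, after their values were seen, to complete a role. The factors, lists and rules were chosen with earlier results of these data known. Calls were tested on simulated data, with a check on planted changes well above the fold limit. The check was first made over all genes and failed there, where low genes have large SEs. It was then made among genes with a mean count of 100 or above, where most were recovered. How well changes just over the limit are recovered is not reported here. Python 3.11.15 with pandas 2.3.3, numpy 2.4.6, scipy 1.17.1 and matplotlib 3.10.9 was used.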

Additional observations from a re-analysis of the deposited data

How the results depend on the processing

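EIF4G3 and EEF1A2 were the factors called lower at an adjusted p under 0.05, after centring on the median of well-expressed genes, at a mean normalized count of 100 or above and with every row per symbol kept. The level limit and the kept rows could not move these calls, since both genes lie above that count and no symbol had several rows. Centring moved each fold change by only 0.01 and kept the adjusted p, and the looser adjusted p could only add factors. With no fold limit 4 were called higher and 9 lower (22.4%, beside 18.2% of all genes), and with a limit of 1 the counts were 0 and 0. When the test itself asked for a change over 0.5, 1 was called lower, as with the statistic divided by its robust spread (2.14), and that gene was EIF4G3 in both; the cause was not tested. With pseudogenes kept, 1 was called higher, EEF1DP2, at a mean normalized count of 21.2. The median fold change of the factors ranged from -0.04, as a mean weighted by the inverse squared SE, to 0.01, and was -0.01 after centring, and no named fold change turned its sign on centring. No paired analysis was possible because the table has no column per library, although the labels number the libraries 1 to 6 in both groups. For the same reason edgeR with a replicate block, other size factors and leaving out a replicate were not run. The narrower rule for the run at the start lowered the share of factors from 48.9% to 25.5% by its construction.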
